A study of Mus musculus with 15 samples.

Results

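The 39 mitosis genes described here are a list of mouse symbols that encode mitotic kinases, cyclins, kinetochore proteins, spindle proteins and cytokinesis proteins. They were chosen by function, and each symbol matched exactly 1 row of the deposited table of 55471 genes. All 39 were tested in both experiments. The study sequenced poly(A)-enriched RNA from 15 libraries of mouse cells whose labelled cell type is MSCLCs, a term the labels do not spell out, and its title concerns YAP1, the fusion oncogene EWS::FLI1, IGF-1 and bone mesenchymal stem cells.

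Experiment 1 set 4 libraries of genotype EFPrx1MSCLC (titles 219, 221, 225 and 229) against 3 of genotype MSC (titles 202, 234_WT and 237_WT, the wild type of the design text). Experiment 2 held 2 libraries of genotype ha (221-Combi-T1 and 221-Combi-T2), 4 of genotype hr (221-Combi-uns-1-1, 221-Combi-uns-1-2, 221-Combi-uns-2-1 and 221-Combi-uns-2-2) and 2 of genotype EF (221-1 and 221-2). The design text calls the groups of experiment 2 ha-EFPrx1, hr-EFPrx1 and EFPrx1, so all of its libraries carry the EFPrx1 name, and all share the title number 221. Prx1 is a common name of Prrx1, a limb mesenchyme gene whose promoter is used in mice to drive Cre. What ha, hr, Combi, uns and T stand for, how the fusion was driven, and the age and culture conditions of the cells were not stated in the labels. Separate animals or cultures within a group are not documented either, so a p-value here reflects only how far these libraries spread, and that spread may be technical. If all of experiment 2 derives from a single line numbered 221, its results describe that line.

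Mitosis is driven by cyclin-dependent kinase 1 bound to A- and B-type cyclins, with the Polo and Aurora kinases acting at centrosomes, kinetochores and the spindle midzone. The spindle checkpoint restrains the anaphase-promoting complex until chromosomes are attached, after which securin and cyclin B are degraded, separase opens cohesin and the cell divides. Most of these genes are transcribed in a wave in late interphase, through a promoter element called CHR (cell cycle genes homology region) bound by the MuvB complex with B-Myb and Foxm1, and through CCAAT boxes bound by NF-Y. In quiescent cells the same element is held silent by the DREAM complex, so the transcripts are widely used as a readout of the share of cells in cycle.

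Stretches of some member promoters that hold both elements before the start are printed below as examples, without a ranking. RefSeq promoters (GRCm38.p6, from 250 bases before to 50 after the start) were found for 31 of the 39 members. None was matched for Aurkb, Foxm1, Tpx2, Kif20a, Incenp, Cdc25c, Ccna2 and Spc24. TTTGAA or TTCGAA, the CHR letters, occurred on either strand in 23 of the 31 (74.2%), against 21.7% of 27025 genes with a promoter and 16.5% of the 9972 genes tested in experiment 2 that had a promoter. CCAAT on either strand occurred in 23 of the 31 (74.2%), against 41.1% of all genes with a promoter and 44.0% of those tested. At least 2 CCAAT matches stood in 51.6% of members with a promoter, against 13.3% of all such genes and 17.1% of those tested. Both motifs stood in 20 of these members (64.5%), against 8.61% of all such genes and 7.11% of those tested. Among 70 further mitosis genes outside the list, 59 had a promoter, and 47.5% of these held both. Of 34 DNA replication genes, 26 had a promoter; 69.2% of these held CCAAT but 19.2% held the CHR letters. TTCGAA reads the same on both strands, and a CCAAT match can share 1 letter with a TTTGAA match that follows it. The stretches below are read 5′ to 3′ on the strand of the gene and end before the annotated RefSeq start. In other members, among them Plk1, Aurka, Cenpf, Ttk and Spc25, the only CHR match lay after that start. Capitals mark TTTGAA or its complement TTCAAA and CCAAT or its complement ATTGG.
Cdk1 (chr10:69352913-69353002, minus strand): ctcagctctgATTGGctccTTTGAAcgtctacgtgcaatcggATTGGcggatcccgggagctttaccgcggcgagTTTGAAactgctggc
Cdc20 (chr4:118437344-118437413, minus strand): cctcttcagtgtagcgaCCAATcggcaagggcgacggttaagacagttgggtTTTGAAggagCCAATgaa
Ube2c (chr2:164769829-164769917, plus strand): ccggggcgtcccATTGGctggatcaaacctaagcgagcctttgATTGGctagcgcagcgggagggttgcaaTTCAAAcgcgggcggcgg
Kif11 (chr19:37376322-37376381, plus strand): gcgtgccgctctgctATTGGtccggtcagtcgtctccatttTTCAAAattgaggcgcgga
Espl1 (chr15:102296233-102296292, plus strand): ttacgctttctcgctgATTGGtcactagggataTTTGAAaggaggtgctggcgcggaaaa
Top2a (chr11:99024190-99024299, minus strand): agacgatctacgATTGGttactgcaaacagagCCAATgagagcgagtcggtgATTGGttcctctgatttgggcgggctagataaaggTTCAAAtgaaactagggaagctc
Mki67 (chr7:135716469-135716579, minus strand): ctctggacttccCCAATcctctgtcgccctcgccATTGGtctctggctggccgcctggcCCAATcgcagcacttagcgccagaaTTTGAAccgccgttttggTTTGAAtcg

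Cdk1, the mitotic kinase itself, had 2 CHR matches and 2 CCAAT matches in the stretch shown. Cdc20, an activator of the anaphase-promoting complex, and Ube2c, its ubiquitin-conjugating enzyme, each had 1 CHR match downstream of a CCAAT match. Kif11, the kinesin that separates spindle poles, and Espl1, which encodes separase, each had a single CCAAT followed by a single CHR match. In the stretches shown, Top2a, the topoisomerase that untangles chromosomes, had 3 CCAAT matches and 1 CHR match. Mki67, the Ki-67 antigen of the chromosome surface, had 3 and 2 in its stretch. The whole promoter window of Top2a held 6 CCAAT matches and 4 CHR matches. A match is a description of letters, and binding was not measured in these data. Neither motif was found in the promoter windows of Birc5, Mad2l1, Nuf2, Nusap1 and Pttg1. The window of Pttg1 lay wholly inside its GENCODE gene, and that of Mad2l1 ended before its GENCODE gene began. For these genes the absence may depend on where the window was placed.

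Library totals ran from 14906251 to 26833939 counts in experiment 1 and from 11195431 to 16378416 in experiment 2, on different flowcells, and no test was made between experiments. The distance between the EF libraries was 1.35 times that of counting noise, and 1.29 within uns-1 and within uns-2, against 16.3 to 17.9 for other hr pairs, 21.6 for ha and 7.62 to 124 for pairs in experiment 1. The EF pair, the uns-1 pair and the uns-2 pair may therefore be repeat libraries of 1 sample each. They were kept as separate libraries, and counts of calls with each pair summed are given for the members and for the related lists. In that fit the lone EF library is assumed to vary like the other groups. The 13 mesenchymal markers were detected in every group, with summed levels of 4510 to 11700 CPM in EFPrx1MSCLC, 15500 to 20300 in MSC, 21400 to 21600 in ha, 11300 to 13800 in hr and 12900 in both EF libraries. The 16 hematopoietic and macrophage markers summed to 54.6 to 521 CPM in EFPrx1MSCLC and 11000 to 31200 CPM in MSC, with none at 0 throughout either group.

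Levels are TMM-normalised CPM, which relate each count to its library total after scaling for composition. A gene was called when its edgeR quasi-likelihood p-value, adjusted by Benjamini-Hochberg over all genes tested in the experiment, was under 0.05. As a plain sum per library over the 39 genes, before TMM scaling, EFPrx1MSCLC held 3510, 3340, 193 and 3000 CPM in 219, 221, 225 and 229, and MSC held 282, 880 and 688 CPM in 202, 234 and 237. In experiment 2 the sum was 1210 and 2120 CPM in ha, 2790, 2800, 3950 and 3970 CPM in hr, and 4720 and 4690 CPM in EF. Library 225 held the lowest sum of all, and in experiment 2 every library with Combi in its title lay below both EF libraries. In bulk samples, fewer dividing cells and less of these RNAs per cell cannot be told apart.

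**Figure D1:**
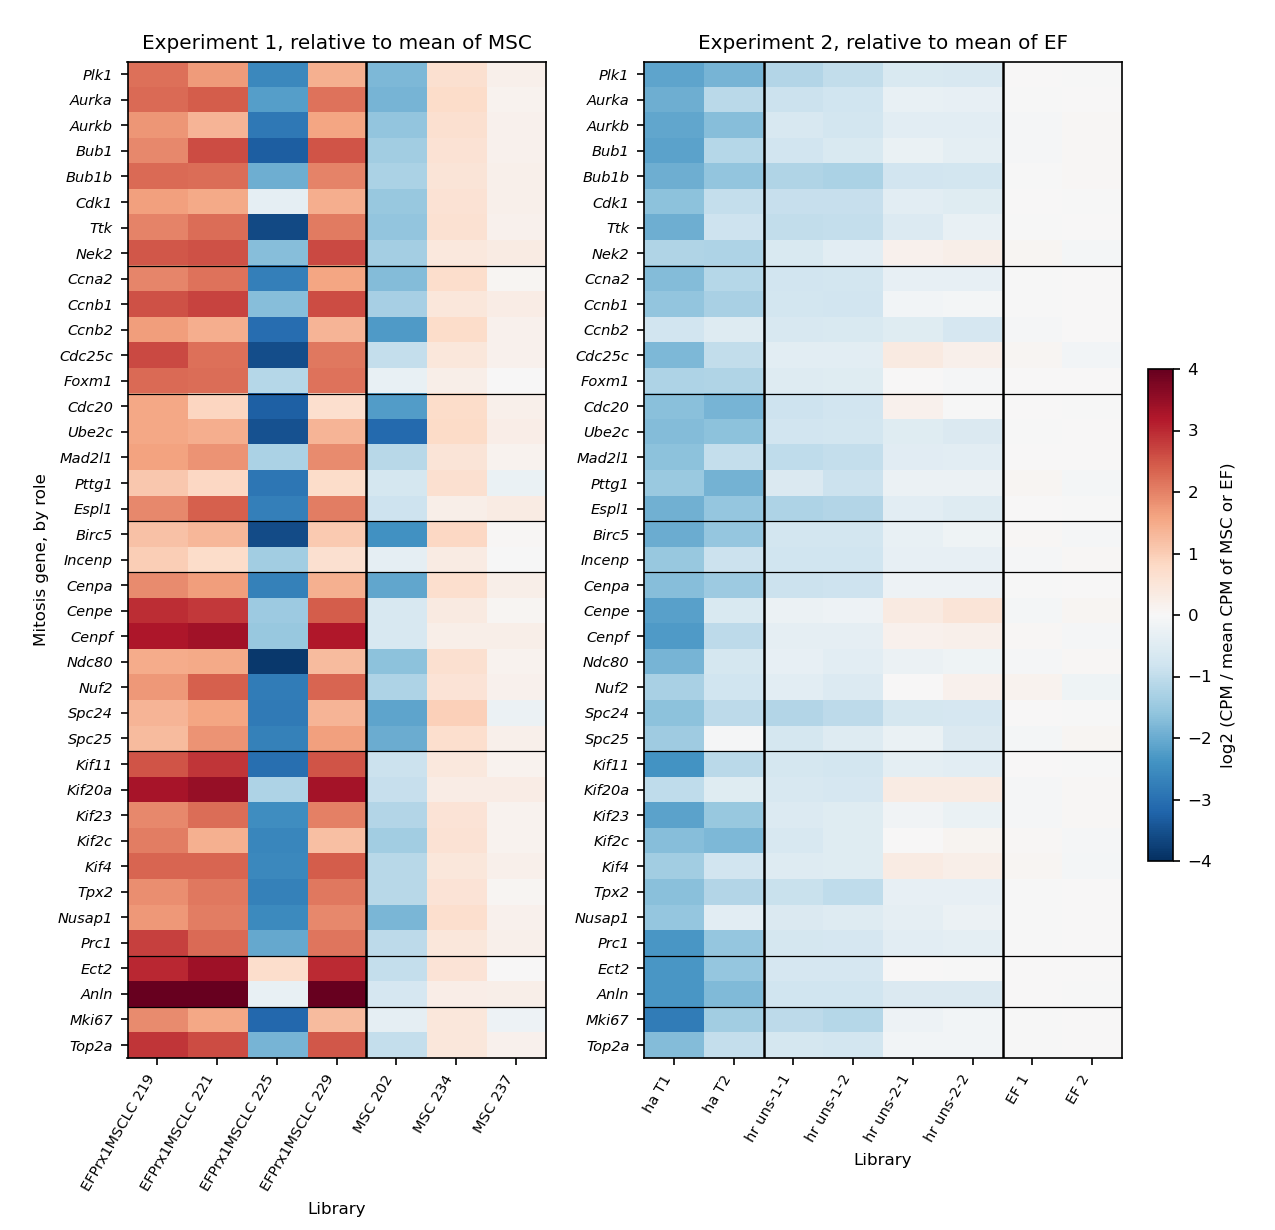
Level of each mitosis gene (rows, by role) in each library (columns) as log2 of its CPM over the mean of MSC in experiment 1 or of EF in experiment 2, with colours limited to 4 in either direction. In experiment 1, the column of library 225 is blue for nearly every gene while 219, 221 and 229 are red; in experiment 2 the blue is deepest in ha and weaker in hr.

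Experiment 1 asked what distinguishes EFPrx1MSCLC cells from wild-type MSC. Ect2 and Anln, which both act in cytokinesis, rose in EFPrx1MSCLC, and the other 37 members were not called. All 39 log2 fold changes were positive, from 0.48 (Incenp) to 3.80 (Anln), with a median of 1.67, against a median of 0.04 over all 14596 genes tested. The 2 members called compare with 7.70% of all genes called higher. No member was called lower, against 12.1% of all genes. At an unadjusted edgeR p under 0.05, 8 of 39 members passed, against 36.4% of all genes, a smaller share than in the whole table. When libraries were scaled by their totals alone, the median of all genes was 0.30, with 14.3% of all genes called higher and 9.99% called lower, and 2 members were called higher with a member median of 1.94.

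Anln, the actin- and septin-binding scaffold of the cleavage furrow, stood at 284, 276, 12.8 and 306 CPM in EFPrx1MSCLC and at 10, 18.8 and 18.5 CPM in MSC. Of the 4 EFPrx1MSCLC libraries, 225 lay within the MSC range and the others more than an order of magnitude above it. Its log2 fold change was 3.80 ± 0.99 (SE), with an edgeR Benjamini-Hochberg adjusted p of 0.0352. Ect2, the exchange factor that activates RhoA at the midzone, stood at 59.5, 77.0, 12.1 and 58.9 CPM in EFPrx1MSCLC and at 3.82, 10.9 and 7.51 CPM in MSC. It was the sole member whose EFPrx1MSCLC libraries all lay above all MSC libraries, a pattern that 16.1% of all genes tested showed. Its log2 fold change was 2.81 ± 0.67, with an edgeR adjusted p of 0.0269. Both calls rest on the set of libraries used. With any of 219, 221, 229, 234 or 237 left out, the edgeR adjusted p was 0.0538 to 0.103 for Ect2 and 0.0629 to 0.118 for Anln. Without 202 it was 0.0487 for Ect2 and 0.0721 for Anln.

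Members not called in experiment 1 showed the same split among libraries. Kif20a, the kinesin that carries the passenger complex to the midzone, stood at 150, 173, 6.48 and 154 CPM in EFPrx1MSCLC and at 8.10, 19.1 and 19.0 CPM in MSC. Library 225 lay below every MSC library and the other 3 far above them. Its log2 fold change was 2.97 ± 0.98 with an edgeR adjusted p of 0.0696. Cenpf, a large outer kinetochore protein, stood at 93.8, 103, 3.46 and 91.8 CPM in EFPrx1MSCLC and at 6.43, 11.8 and 11.8 CPM in MSC. It had a log2 fold change of 2.87 ± 0.97 and an edgeR adjusted p of 0.0763.

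Among the kinases, Plk1 (Polo-like kinase 1) stood at 59.9, 42.2, 2.18 and 34.9 CPM in EFPrx1MSCLC and at 3.73, 20.6 and 15.0 CPM in MSC. Aurkb, the kinase of the chromosomal passenger complex, stood at 41.1, 31.6, 1.67 and 36.2 CPM in EFPrx1MSCLC and at 4.05, 18.9 and 13.6 CPM in MSC. For both kinases 3 EFPrx1MSCLC libraries lay above the MSC range and 225 below it. Cdk1 differed in that 225 kept an intermediate level. It stood at 153, 141, 37.8 and 133 CPM in EFPrx1MSCLC and at 17.1, 73.4 and 55.9 CPM in MSC. Bub1b, the checkpoint protein BubR1, stood at 64.7, 63.9, 3.53 and 53.3 CPM in EFPrx1MSCLC and at 5.62, 19.6 and 15.6 CPM in MSC. The log2 fold changes of these 4 genes lay between 1.18 (Aurkb) and 1.77 (Bub1b), and none was called.

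Ccnb1, the main mitotic B-type cyclin, stood at 99.2, 110, 5.19 and 103 CPM in EFPrx1MSCLC and at 6.79, 23.2 and 21.1 CPM in MSC, with a log2 fold change of 2.23 ± 0.94 and an edgeR adjusted p of 0.131. Foxm1, the forkhead factor that activates mitotic genes, stood at 85.5, 83.4, 8.08 and 80.9 CPM in EFPrx1MSCLC and at 14.7, 20.9 and 18.1 CPM in MSC. The 3 high EFPrx1MSCLC libraries were again close to each other. Cdc20 was the exception to this layout. It stood at 54.3, 33.7, 1.92 and 29.4 CPM in EFPrx1MSCLC and at 3.87, 30.3 and 21.1 CPM in MSC, so library 229 lay just below MSC 234. Birc5, which encodes the passenger protein survivin, stood at 59.2, 65.0, 2.18 and 53.8 CPM in EFPrx1MSCLC and at 4.86, 46.1 and 27.1 CPM in MSC, and had a log2 fold change of 0.80 ± 1.04.

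Mki67 stood at 241, 189, 7.37 and 157 CPM in EFPrx1MSCLC and at 50.4, 88.8 and 56.7 CPM in MSC. Top2a stood at 397, 332, 15.1 and 304 CPM in EFPrx1MSCLC and at 27.8, 73.9 and 61.4 CPM in MSC. Ndc80, which couples kinetochores to microtubules, stood at 26.2, 26.7, 0.641 and 22.6 CPM in EFPrx1MSCLC and at 2.97, 14.7 and 10.4 CPM in MSC. In all 3 genes library 225 was the lowest of the 7 libraries. The smallest changes of the list were those of Incenp, the passenger complex scaffold, at 0.48 ± 0.51, and of Pttg1, which encodes securin, at 0.51 ± 0.78.

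**Figure D2:**
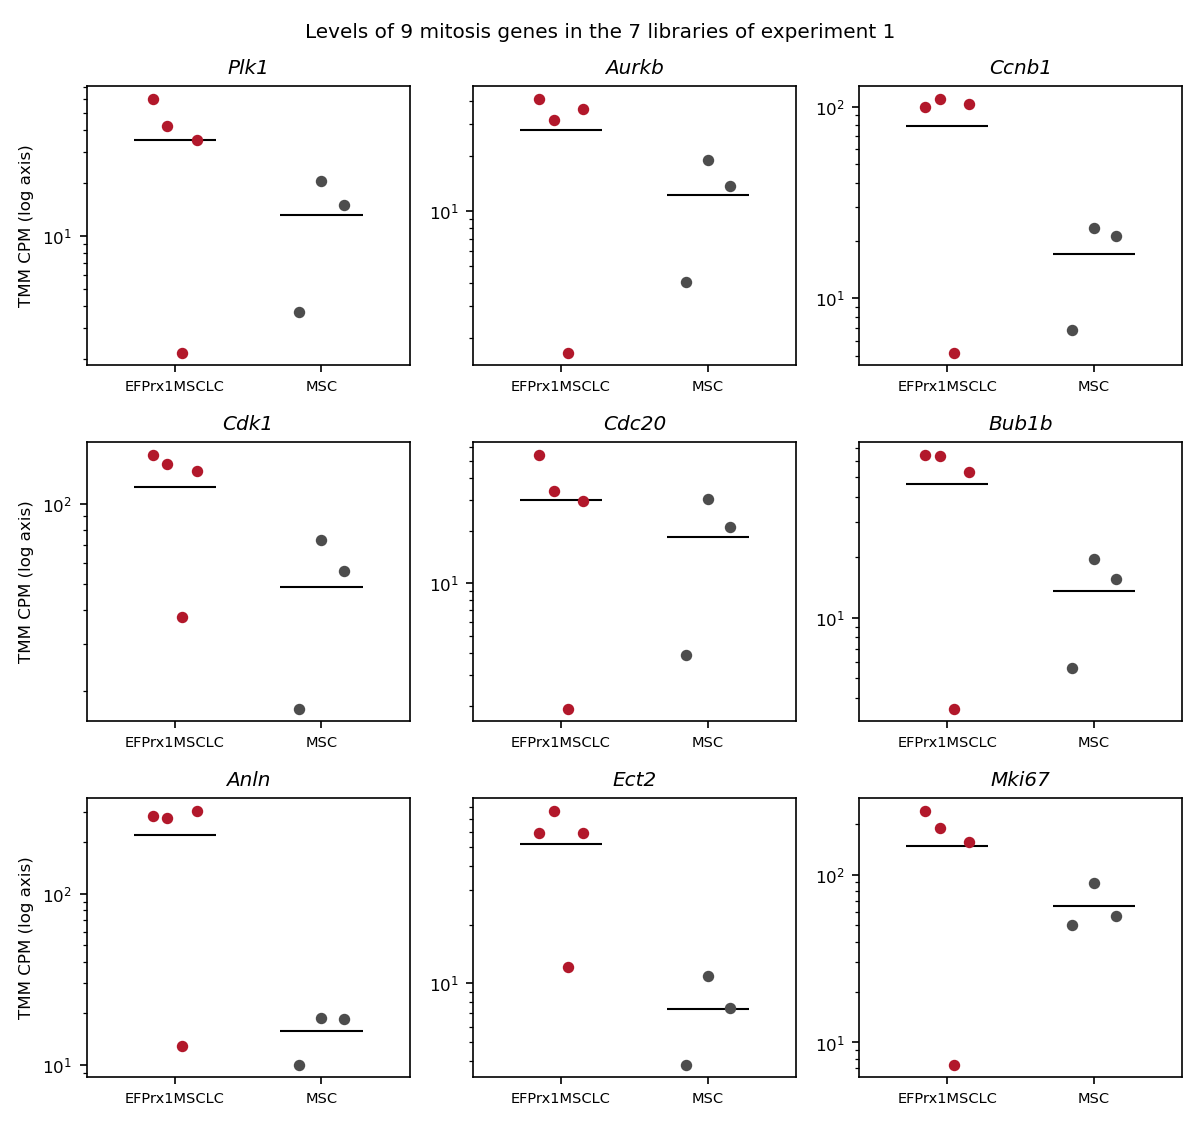
TMM CPM (log axis) of 9 mitosis genes in each library of experiment 1, with EFPrx1MSCLC in red, MSC in grey and a bar at the group mean. In each panel 3 red points lie close together and 1 (library 225) lies far below them, and 1 grey point (library 202) is the lowest of MSC.

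Across the list, 219, 221 and 229 lay above all 3 MSC libraries for 38 of 39 members, all but Cdc20, against 22.6% of all genes tested. Library 225 lay below all 3 MSC libraries for 36 members, against 36.5% of all genes. The exceptions were Cdk1, Ect2 and Anln. The mean of 219, 221 and 229 exceeded 225 by 3.77-fold (Cdk1) to 58.4-fold (Cdc25c, the phosphatase that activates Cdk1), with a median of 22.3-fold. On log2(CPM + 1), 225 minus the mean of the other 3 had a median of -3.99 over the members, where the central 90% of all genes ran from -1.90 to 1.30. Within MSC, library 202 lay below 234 and 237 for 39 of 39 members, against 39.3% of all genes, with ratios of 1.33-fold (Foxm1) to 12.4-fold (Ube2c) and a median of 3.13-fold. These ratios describe single libraries and have no test.

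Library 225 also held 8.43% mitochondrial counts, against 4.06% to 5.77% in the other EFPrx1MSCLC libraries and 1.63% to 3.52% in MSC, and 16.8% of its counts came from its 10 highest genes. Its macrophage markers summed to 56.1 CPM and its mesenchymal markers to 4510 CPM, the lowest mesenchymal sum of the experiment. In MSC the macrophage sum was 11000 CPM in 202, 31200 CPM in 234 and 20600 CPM in 237, in the same order as the sum of the 39 genes. The part of these differences in the results was not tested. Leaving out 225, in which these same members were low, raised the count of members called higher to 22 of 39, against 8.65% of all genes. The median log2 fold change rose to 1.96. Because the members themselves set 225 apart, the fit without it is no independent evidence that they rose. In that fit Anln had a log2 fold change of 4.10 ± 0.35 (edgeR adjusted p = 0.0027) and Cenpf of 3.18 ± 0.32 (edgeR adjusted p = 0.00363). Plk1, Aurkb, Cdk1, Cdc20, Birc5 and Ube2c were not among the 22. Leaving out any other library gave 0 or 1 call, while 1.61% to 16.7% of all genes were called higher.

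**Figure D3:**
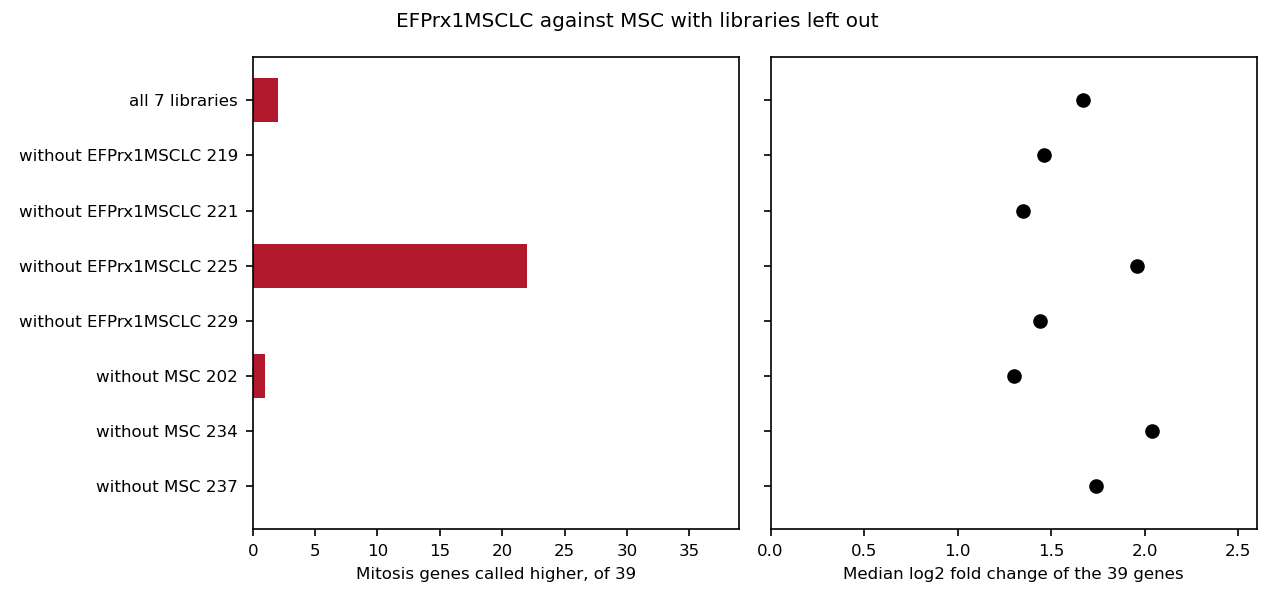
Number of the 39 mitosis genes called higher in EFPrx1MSCLC than in MSC (left, bars) and median log2 fold change (right, points) with all 7 libraries and with each library left out. The count is 2 with all libraries, 22 without 225 and 0 or 1 without any other library, while the median stays between 1.30 and 2.04.

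Related lists are read against the 7.70% of all genes called higher and 12.1% called lower in experiment 1. Of 70 further mitosis genes, 10 rose, none was called lower, and the median log2 fold change was 1.46. Library 225 was low in other proliferation lists as well as in the 39 members. As plain sums, the further mitosis genes held 945 CPM in 225 and 3360 to 3700 CPM in the other EFPrx1MSCLC libraries, against 773, 1230 and 1100 CPM in MSC 202, 234 and 237. The 34 DNA replication genes held 311 CPM in 225 and 1960 to 2230 CPM in the other EFPrx1MSCLC libraries, against 365, 941 and 701 CPM in MSC. Sums of the cohesin, MuvB and E2F, and anaphase-promoting complex lists in 225 were also the lowest of their group, at 1020, 789 and 1100 CPM, but much nearer to the other 3 libraries, at 1200 to 1230, 911 to 971 and 1400 to 1450 CPM. Wee1, the kinase that restrains Cdk1, stood at 45.1, 30.2, 54.4 and 32.2 CPM in EFPrx1MSCLC and at 8.82, 10.7 and 8.01 CPM in MSC, and rose by 2.14 ± 0.30 (edgeR adjusted p = 0.00448). Library 225 had the highest level of this gene. Zwint and Mis12, both kinetochore genes, rose by 0.90 ± 0.21 and 0.86 ± 0.20 (edgeR adjusted p = 0.0225 and 0.0229), also with 225 among its group. Of 34 DNA replication genes 1 rose, the helicase gene Mcm4, and none was called lower. Of 10 cohesin genes 3 rose (Pds5b, Rad21 and Smc3). Of 16 subunits and partners of the anaphase-promoting complex none was called in edgeR, with 3 at an unadjusted p under 0.05, against 36.4% of all genes. Of 22 MuvB, B-Myb and E2F regulators 4 rose and 1, E2f2, fell. Of 8 CDK inhibitors, Cdkn2a and Cdkn1c fell and Cdkn1b rose by 1.02 ± 0.20 (edgeR adjusted p = 0.0137). Without 225, 8.65% of all genes were called higher. The edgeR calls higher then came to 44 of the 70 further mitosis genes, 15 of the 34 replication genes and 5 of the 10 cohesin genes. They came to 8 of the 22 regulators and 0 of the 16 genes of the anaphase-promoting complex. Of these 16, 3 had an unadjusted p under 0.05, against 38.5% of all genes. Wee1, Zwint, Mis12 and Cdkn1b were still called in that fit. Counts from it are no independent evidence for lists that were low in 225.

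Experiment 2 set ha and hr cells against EF cells. In ha, 35 of the 39 members fell and none was called higher, against 19.6% of all 13998 genes tested called lower and 23.0% called higher. All 39 log2 fold changes of ha against EF were negative, from -2.03 (Anln) to -0.58 (Spc25), with a median of -1.44, against 0.05 over all genes. The median member was 2.71-fold lower in ha. For 38 members, all but Spc25, both ha libraries lay below both EF libraries, against 36.0% of all genes. Cenpe, Kif20a, Spc25 and Nusap1 were not called.

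Among the kinases all 8 members fell in ha. Plk1 stood at 18.2 and 21.6 CPM in ha, at 34.8, 39.7, 51.2 and 49.6 CPM in hr and at 78.0 and 77.7 CPM in EF. The 3 groups did not overlap, and ha was lowest. Plk1 fell by 1.97 ± 0.20 on the log2 scale in ha (edgeR adjusted p = 0.000503). Aurkb stood at 14.3 and 18.3 CPM in ha, at 38.7, 36.1, 44.7 and 44.6 CPM in hr and at 58.8 and 61.6 CPM in EF, and fell by 1.88 ± 0.17 in ha (edgeR adjusted p = 0.000306). Bub1b stood at 34.0 and 44.0 CPM in ha, at 57.5, 54.6, 77.8 and 77.9 CPM in hr and at 129 and 134 CPM in EF. Cdk1 stood at 56.3 and 92.2 CPM in ha, at 94.1, 93.1, 132 and 127 CPM in hr and at 180 and 174 CPM in EF. For Cdk1 the higher ha library nearly met the lower hr libraries, and the fall in ha was 1.25 ± 0.27 (edgeR adjusted p = 0.00785). The changes of Aurka, Bub1, Ttk and Nek2 lay between -1.55 (Bub1) and -1.23 (Nek2).

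All 5 cyclin and activator genes fell in ha. Ccnb1 stood at 39.1 and 47.9 CPM in ha, at 70.4, 68.7, 109 and 112 CPM in hr and at 117 and 118 CPM in EF, and fell by 1.44 ± 0.27 in ha (edgeR adjusted p = 0.00474). Ccna2, the A-type cyclin, fell by 1.40 ± 0.24, and Cdc25c by 1.32 ± 0.36. Ccnb2, another B-type cyclin, fell less, by 0.63 ± 0.14 (edgeR adjusted p = 0.00825). Foxm1 stood at 53.2 and 54.0 CPM in ha, at 87.2, 89.4, 124 and 120 CPM in hr and at 124 and 124 CPM in EF. The uns-2 libraries of hr reached the EF level of Foxm1, and both ha libraries lay below all others. Foxm1 fell by 1.21 ± 0.19 in ha (edgeR adjusted p = 0.0026).

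All 5 genes of anaphase promotion, checkpoint and separase fell in ha. Ube2c had the smallest p of the list: it fell by 1.70 ± 0.13 (edgeR adjusted p = 0.000182), standing at 27.7 and 29.8 CPM in ha, at 55.2, 55.9, 67.0 and 62.7 CPM in hr and at 92.1 and 94.2 CPM in EF. Cdc20 stood at 24.9 and 22 CPM in ha, at 45.1, 46.4, 89.8 and 78.9 CPM in hr and at 80.7 and 78.2 CPM in EF. The uns-2 libraries and the EF libraries overlapped, whereas uns-1 lay midway. Cdc20 fell by 1.76 ± 0.35 in ha (edgeR adjusted p = 0.00578). Espl1, Pttg1 and the checkpoint gene Mad2l1 fell by 1.72 ± 0.30, 1.68 ± 0.25 and 1.26 ± 0.28. Cdk1, Cdc20, Ube2c and Espl1 are among the genes whose promoter letters are printed above.

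The passenger genes both fell in ha. Birc5 stood at 20.8 and 28.5 CPM in ha, at 50.4, 50.4, 67.6 and 74.6 CPM in hr and at 85.2 and 81.2 CPM in EF, and fell by 1.75 ± 0.24 (edgeR adjusted p = 0.00141). Incenp fell by 1.15 ± 0.26. Of 7 centromere and kinetochore genes 5 fell. Cenpa, the centromeric histone, fell by 1.58 ± 0.27, Cenpf by 1.54 ± 0.38 and Spc24 by 1.32 ± 0.24. Ndc80 stood at 14 and 31.4 CPM in ha, at 41.2, 38.3, 43.4 and 45.8 CPM in hr and at 49.8 and 52.9 CPM in EF. Its ha libraries differed from each other by more than its hr libraries did. Ndc80 fell by 1.17 ± 0.31 (edgeR adjusted p = 0.0201) and its partner Nuf2 by 1.03 ± 0.29. Spc25, the partner of Spc24, stood at 11.9 and 30.4 CPM in ha, against 30.0 and 33.3 CPM in EF, a log2 fold change of -0.58 ± 0.37. Cenpe, a kinetochore kinesin, stood at 16.6 and 48.6 CPM in ha, against 70.4 and 77.7 CPM in EF, a log2 fold change of -1.18 ± 0.47.

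Of 8 spindle genes 6 fell in ha. Prc1, which bundles midzone microtubules, fell by 1.89 ± 0.25 (edgeR adjusted p = 0.00117), its partner kinesin Kif4 by 1.05 ± 0.33, and the midzone kinesin Kif23 by 1.80 ± 0.22 (edgeR adjusted p = 0.000973). Kif2c, a microtubule depolymerase, stood at 15.4 and 14.5 CPM in ha, at 32.5, 36.3, 50.4 and 53.9 CPM in hr and at 52.2 and 48.6 CPM in EF, and fell by 1.75 ± 0.25. Kif11 fell by 1.59 ± 0.37, and Tpx2, an Aurora A activator, by 1.40 ± 0.27. Kif20a and Nusap1, a spindle-associated protein, had log2 fold changes of -0.73 ± 0.39 and -0.87 ± 0.31 and were not called.

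The cytokinesis genes showed some of the largest falls. Anln stood at 87.1 and 129 CPM in ha, at 253, 251, 296 and 294 CPM in hr and at 442 and 438 CPM in EF. The 3 groups were well separated. Anln fell by 2.03 ± 0.20 in ha, 4.07-fold (edgeR adjusted p = 0.00042). Ect2 stood at 27.1 and 46.7 CPM in ha, at 85.0, 85.1, 137 and 135 CPM in hr and at 136 and 137 CPM in EF, and fell by 1.88 ± 0.34 in ha. The Ect2 levels of the uns-2 libraries overlapped those of EF. Mki67 stood at 62.9 and 167 CPM in ha, at 211, 199, 377 and 405 CPM in hr and at 431 and 443 CPM in EF, and fell by 1.92 ± 0.51 (edgeR adjusted p = 0.0193). Top2a stood at 191 and 332 CPM in ha, at 394, 386, 587 and 590 CPM in hr and at 637 and 638 CPM in EF, and fell by 1.29 ± 0.32 (edgeR adjusted p = 0.0142). Both ha libraries lay below every other library for both genes.

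**Figure D4:**
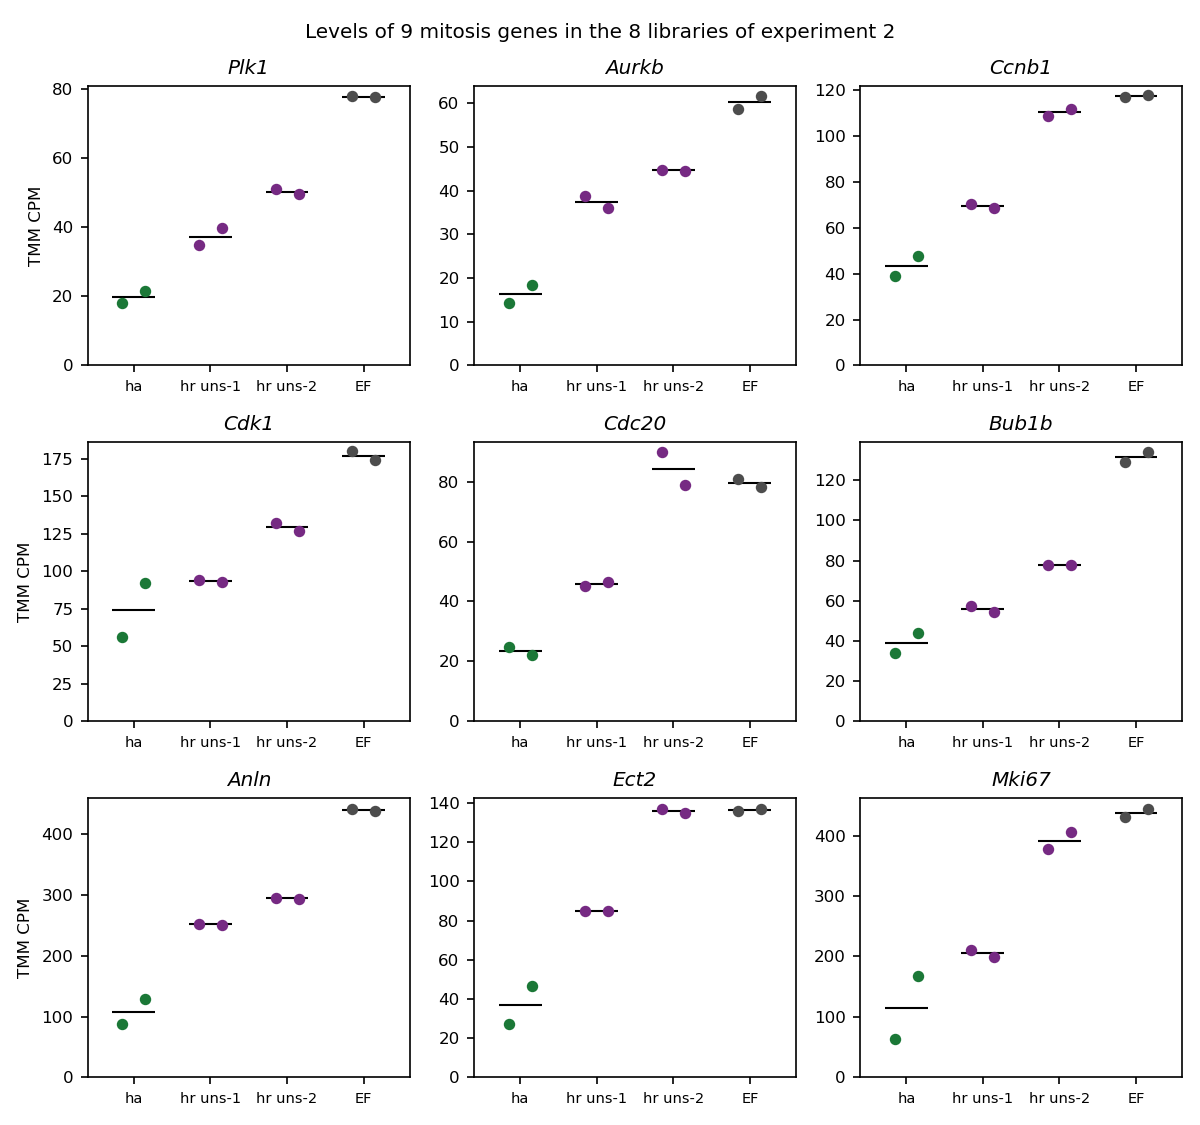
TMM CPM (linear axis from 0) of 9 mitosis genes in experiment 2 for ha, the uns-1 and uns-2 libraries of hr, and EF, with a bar at each mean. In every panel ha is lowest and uns-1 lies below uns-2; uns-2 meets EF for Ect2 and Cdc20 and stays below it for Plk1, Bub1b, Cdk1 and Anln.

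The 2 ha libraries were not alike. 221-Combi-T2 exceeded 221-Combi-T1 for 35 of 39 members, by a median of 1.53-fold, from 0.764-fold (Pttg1) to 2.92-fold (Cenpe). Cdc20, Kif2c, Nek2 and Pttg1 went the other way. On log2(CPM + 1) the median difference over members was 0.60, where the central 90% of all genes ran from -0.77 to 0.94. When a library was left out, the share of all genes called lower in ha than in EF varied too. It was 18.6% to 18.7% without an hr library and smaller without an EF library. Leaving out each library of experiment 2 in turn kept 23 of the 35 calls throughout. With each close pair summed into 1 library, so that EF was a single library, 9 members remained called lower in ha (Plk1, Aurkb, Bub1b, Birc5, Kif23, Kif2c, Prc1, Anln and Ube2c), against 1.87% of all genes called lower and 2.74% called higher. In that fit 35 members had an unadjusted edgeR p under 0.05, against 27.9% of all genes.

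In hr most members lay between ha and EF. Of 39 members 6 fell against EF, namely Ube2c, Bub1b, Ccnb2, Plk1, Spc24 and Anln, and none was called higher, against 3.07% of all genes called lower and 3.88% called higher. The median log2 fold change was -0.49, a 1.41-fold lower level, and Cenpe alone had a positive value, 0.14 ± 0.40. All 4 hr libraries lay below both EF libraries for 28 members, against 24.1% of all genes. Bub1b fell by 0.97 ± 0.18 (edgeR adjusted p = 0.0261) and Plk1 by 0.83 ± 0.16 (edgeR adjusted p = 0.0328). Ube2c fell by 0.63 ± 0.10 (edgeR adjusted p = 0.0189) and Anln by 0.69 ± 0.16 (edgeR adjusted p = 0.0468). Spc24 stood at 14.8, 16.3, 20.3 and 20.8 CPM in hr, against 34.1 and 32.7 CPM in EF, and fell by 0.89 ± 0.20 (edgeR adjusted p = 0.0423). Ccnb2 stood at 15.7, 16.2, 17.6 and 15.4 CPM in hr, against 24.0 and 25.1 CPM in EF, and fell by 0.60 ± 0.12 (edgeR adjusted p = 0.0297). No call of hr against EF was kept under every omission of a library: leaving out either EF library gave 0 calls, either uns-1 library 1, uns-2-1 gave 3 and uns-2-2 gave 2. Without either EF library 0 of all genes tested were called, and without an hr library 0.816% to 0.896% were called lower. With close pairs summed, 0 members were called by edgeR, but 0.00% of all 15959 genes were called in either direction in that fit, so the count says nothing about the members. In it, 4 of 39 members had an unadjusted p under 0.05, against 4.99% of all genes.

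Against ha, 30 of 39 members were higher in hr and none was called lower, against 17.9% of all genes called higher and 21.5% called lower. All 39 log2 fold changes were positive, with a median of 1.04, a 2.05-fold higher level, and a range from 0.03 (Ccnb2) to 1.58 (Ect2). All hr libraries lay above both ha libraries for 32 members, against 26.6% of all genes. Ect2 rose by 1.58 ± 0.30 (edgeR adjusted p = 0.00579), Kif2c by 1.54 ± 0.23 (edgeR adjusted p = 0.00194) and Cdc20 by 1.47 ± 0.31 (edgeR adjusted p = 0.0087). Cenpf, at 75.3, 74.8, 107 and 109 CPM in hr and 19.7 and 46.1 CPM in ha, rose by 1.47 ± 0.34 (edgeR adjusted p = 0.0126). Members not called were Cdk1, Ccnb2, Kif20a, Ttk, Spc24, Spc25, Nusap1, Mad2l1 and Incenp. Ccnb2 was as low in hr, at 15.4, 15.7, 16.2 and 17.6 CPM, as in ha, at 14.6 and 17.1 CPM. With each library left out in turn 12 of the 30 calls were kept, and with 221-Combi-T1 left out 14 members were called, against 15.1% of all genes called higher. With close pairs summed 7 were called (Plk1, Aurkb, Birc5, Kif23, Kif2c, Anln and Ube2c), against 2.69% of all genes called higher and 5.28% called lower. The 3 comparisons of experiment 2 share libraries and are not independent of each other.

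**Figure D5:**
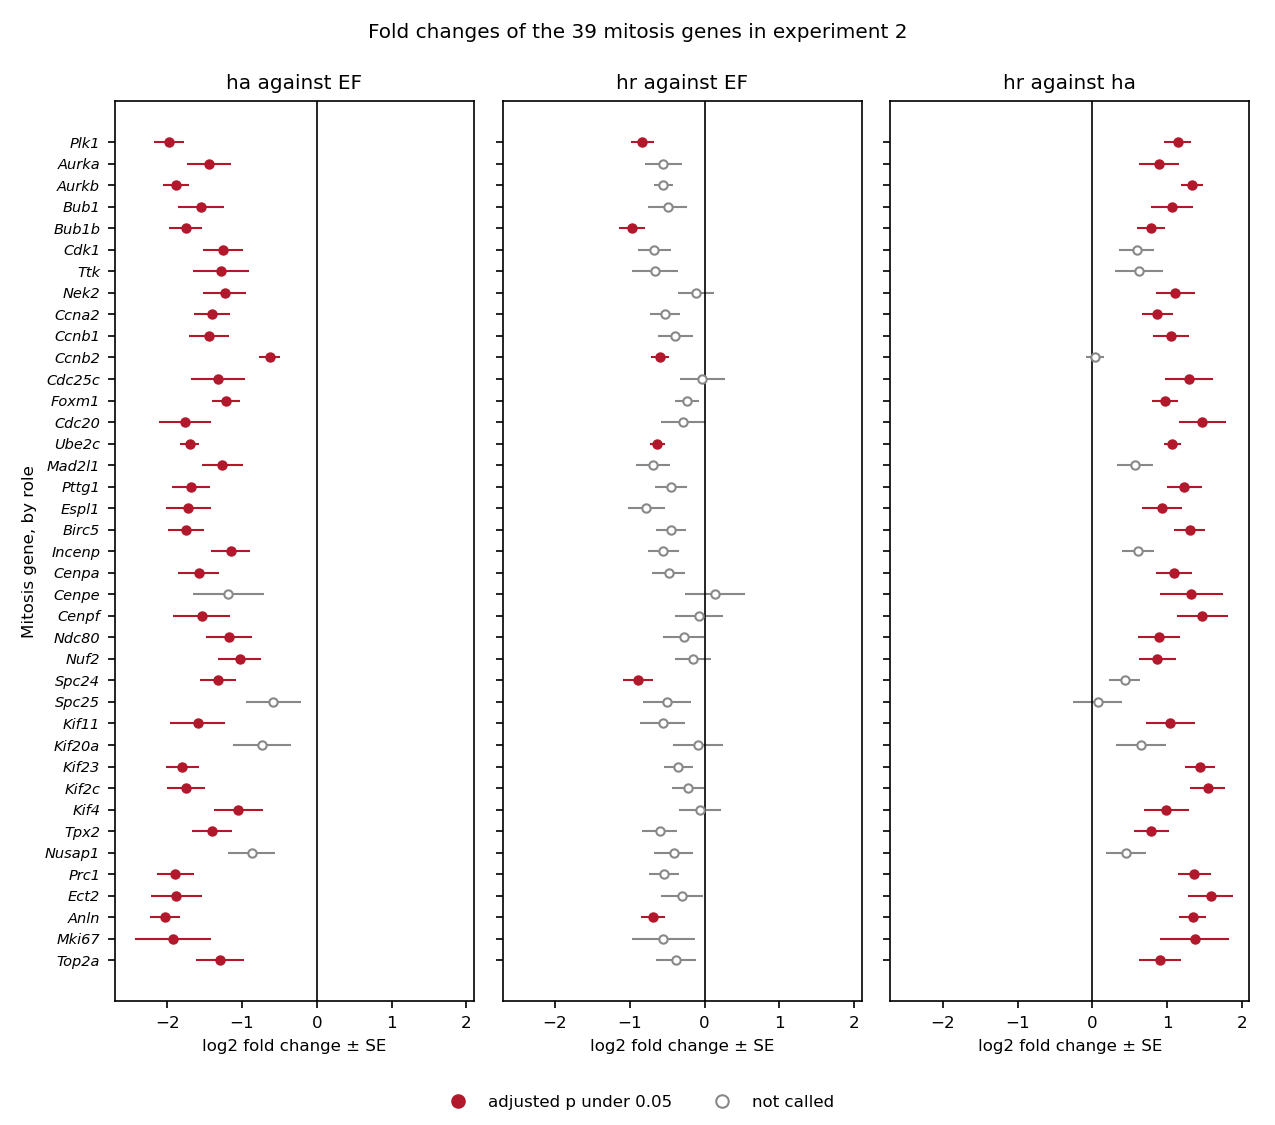
log2 fold change with its standard error for each mitosis gene in ha against EF, hr against EF and hr against ha, with red points for an edgeR adjusted p under 0.05. Points of ha against EF lie between -2.03 and -0.58, those of hr against EF between -0.97 and 0.14, and those of hr against ha between 0.03 and 1.58.

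The hr libraries differed by their title numbers. Both uns-1 libraries lay below both uns-2 libraries for 37 of 39 members, all but Ccnb2 and Spc25, against 37.4% of all genes, and the uns-2 mean exceeded the uns-1 mean by a median of 1.41-fold. The ratio ran from 1.04-fold (Ccnb2) to 1.97-fold (Kif20a, at 122 and 121 CPM in uns-2 and 62.0 and 60.9 CPM in uns-1). Relative to EF, the median member had a log2 ratio of -0.71 in uns-1 and -0.29 in uns-2. All 39 were negative in uns-1, whereas 9 were positive in uns-2, with the highest for Cenpe at 0.44. Since each pair may be a single sample, these ratios carry no test. With uns-1 alone as hr, 18 members were called lower than EF, against 8.26% of all genes, and with uns-2 alone 3, against 6.30% of all genes. With uns-1 alone, 17 members were called higher than in ha, against 17.3% of all genes. For 22 of 39 members the libraries were ordered without overlap as ha lowest, then uns-1, then uns-2, then EF, against 4.96% of all genes. The others included Cdc20, Ect2, Foxm1 and Kif2c, whose uns-2 level reached EF, and Ccnb2, Spc24 and Spc25, whose hr level met ha.

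Levels were also set per kilobase of exon, with all annotated exons of a gene merged. This length can exceed that of the main transcript, so a ranking between genes is approximate. In EF, Top2a was the highest member at 70.8 CPM per kb, followed by Anln at 48.6, Ccna2 at 46.4, Mki67 at 43.4 and Cdc20 at 42.5 CPM per kb. Cdc25c was the lowest at 3.06 CPM per kb. In ha, Top2a stood at 29.0 and Anln at 11.9 CPM per kb, against 54.3 and 30.2 CPM per kb in hr. On this length Anln was above Ccna2 in EF, while in ha Ccna2, at 17.5 CPM per kb, was above Anln.

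Counts of called genes in the lists around the members are read against the shares over all genes, which in ha against EF were 19.6% called lower and 23.0% called higher, in hr against EF 3.07% and 3.88%, and in hr against ha 21.5% and 17.9%. Of 70 further mitosis genes, 55 fell in ha and 1 rose, with a median log2 fold change of -1.25. Knstrn, a spindle and kinetochore adaptor, fell by 1.99 ± 0.14 (edgeR adjusted p = 0.000156), Cdc25b, a phosphatase that activates Cdk1, by 1.51 ± 0.12 (edgeR adjusted p = 0.000208), and Cenpn by 1.66 ± 0.14 (edgeR adjusted p = 0.000293). Ckap2, a microtubule-associated gene named here after its values were seen, went the opposite way, at 256 and 278 CPM in ha, at 58.4, 56.4, 87.3 and 87.6 CPM in hr and at 89.1 and 86.4 CPM in EF. It rose by 1.61 ± 0.24 in ha (edgeR adjusted p = 0.00207). In hr, 6 of the 70 fell against EF, Cenpn, Bub3 and Cenpw among them, and none was called higher. Against ha, 37 were higher in hr and 1, Ckap2, was lower. With close pairs summed, 10 of the 70 were called lower in ha than in EF, Knstrn, Cdc25b and Cenpn among them, against 1.87% of all genes, and 5 were called higher in hr than in ha, against 2.69%. The rise of Ckap2 in ha against EF was then not called (edgeR adjusted p = 0.0602), while Ckap2 remained lower in hr than in ha (edgeR adjusted p = 0.0199).

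Of 34 DNA replication genes 28 fell in ha and none was called higher, with a median log2 fold change of -1.39, beside -1.44 for the mitosis genes. Rfc4, a clamp loader subunit, fell by 1.57 ± 0.14 (edgeR adjusted p = 0.000307) and Cdc45, a helicase subunit, by 1.53 ± 0.17 (edgeR adjusted p = 0.000606). In hr 5 fell against EF, Rfc4, Gins1 and Pcna among them, and 14 were higher than in ha. With close pairs summed, Rfc4, Cdc45 and Chaf1b were called lower in ha, and 26 of the 34 had an unadjusted edgeR p under 0.05, against 27.9% of all genes. The calls of hr against ha among the 34 were all lost there, as were most calls over all genes. Their median log2 fold change in hr against ha was then 0.79. Of 16 anaphase-promoting complex genes 4 fell in ha and 1, Anapc16, rose, with a median of -0.03, so the share that fell was near that of all genes and the share that rose below it. Ube2s, the enzyme that extends the ubiquitin chains of the complex, fell by 1.13 ± 0.18 (edgeR adjusted p = 0.00234) and Cdc27 by 0.69 ± 0.13 (edgeR adjusted p = 0.00448). None of the 16 was called in hr against EF by edgeR, with 4 at an unadjusted p under 0.05, against 26.0% of all genes, and against ha 4 were higher and 2 lower in hr. Of 10 cohesin genes 3 fell in ha (Rad21, Pds5a and Smc3), 2 were higher in hr than in ha (Smc3 and Wapl), and the median in ha was -0.29. With close pairs summed, no gene of the anaphase-promoting complex or cohesin lists was called by edgeR in any comparison of experiment 2; in ha against EF 3 of the 16 and 1 of the 10 had an unadjusted p under 0.05.

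Of 22 MuvB, B-Myb and E2F regulators 10 fell in ha and 2 rose, with a median of -0.35. E2f8, an E2F repressor, stood at 11.7 and 18.8 CPM in ha, at 39.4, 39.4, 43.1 and 42.6 CPM in hr and at 63.3 and 66.6 CPM in EF, and fell by 2.09 ± 0.20 in ha (edgeR adjusted p = 0.000431). Nfyb, a subunit of the CCAAT-binding NF-Y, fell by 0.81 ± 0.10 (edgeR adjusted p = 0.00109). Rbl2, which encodes the DREAM pocket protein p130, and the E2F partner Tfdp2 rose, by 0.87 ± 0.20 (edgeR adjusted p = 0.00994) and 0.63 ± 0.13 (edgeR adjusted p = 0.00687). None of the 22 was called in hr against EF by edgeR, with 7 at an unadjusted p under 0.05, against 26.0% of all genes. Of 8 CDK inhibitors, Cdkn2a, Cdkn2b and Cdkn1c had 0 counts in all 8 libraries. Cdkn1b stood at 112 and 127 CPM in ha, at 81.5, 76.5, 58.1 and 56.5 CPM in hr and at 54.8 and 52.5 CPM in EF, and rose by 1.16 ± 0.20 in ha (edgeR adjusted p = 0.0033). Cdkn1a, the p53 target p21, was higher in hr than in EF by 0.96 ± 0.22 (edgeR adjusted p = 0.047) and higher than in ha by 0.87 ± 0.22 (edgeR adjusted p = 0.0184). Cdkn3, a phosphatase transcribed with the mitotic genes, fell by 2.05 ± 0.29 in ha (edgeR adjusted p = 0.00149). With close pairs summed, E2f8 was the sole regulator called, lower in ha than in EF and higher in hr than in ha. No call among the 5 CDK inhibitors tested was kept there. Their median log2 fold change was then -0.07 in ha against EF, 0.01 in hr against EF and 0.28 in hr against ha. The edgeR adjusted p in that fit was 0.0847 for Cdkn1b and 0.0672 for Cdkn3 in ha against EF, and for Cdkn1a 0.916 in hr against EF and 0.129 in hr against ha. All calls of hr against EF in these lists, 6 of the further mitosis genes, 5 of the replication genes and Cdkn1a, were lost there, as was every call over all genes.

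Beside these, 8 of 13 mesenchymal markers rose in ha, against 23.0% of all genes, and 1 fell, against 19.6%. With close pairs summed these calls were lost, as were most calls over all genes. The median log2 fold change of the 13 was then 1.23. The macrophage markers summed to 12.1 and 29.8 CPM in ha, 7.85 to 9.45 in hr and 9.37 and 9.38 in EF, with C1qa, C1qb, C1qc, Adgre1, Cd52, Cd48 and Tyrobp at 0 in all 8 libraries. The part of these in the results was not tested.

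Some member counts are uncertain. Ndc80 has a transcribed copy of 92.7% identity over 763 bases, 2700099C18Rik, whose counts came to 31.1% of those of Ndc80, and RSEM divides reads between them. The processed pseudogenes of Ccnb1 held at most 0.247% of its counts. Kif20a overlaps Cdc23, Kif4 overlaps Pdzd11, Ccna2 overlaps Exosc9, Prc1 overlaps Rccd1 and Nusap1 overlaps Oip5, each on the opposite strand. Cdc20 with Elovl1, Ube2c with Tnnc2 and Cdc25c with Gm3550 also overlap on opposite strands. Foxm1 overlaps Tex52 and Gm44596 on the same strand. The strand setting of the counting is not stated in the labels, and reads of such partners may be mixed. On GRCm38, Plk1 (ENSMUSG00000030867) lies at chr7:122159439-122169873 on the plus strand, Anln (ENSMUSG00000036777) at chr9:22332012-22389188 and Ect2 (ENSMUSG00000027699) at chr3:27097222-27153878, both on the minus strand, and each count covers all exons of the gene.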

How the data were processed

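The authors deposited a table of RSEM expected counts per gene (8.268% of them not whole numbers). Per the submitters' processing notes, STAR, RSEM and GRCm38.p6 were used; their versions, the annotation and the strand setting were not stated. Symbols and positions came from GENCODE M21; 55144 identifiers had a symbol. Here, expected counts were rounded (totals changed by at most 0.000579%), filtered with filterByExpr by group (minimum count 10) and scaled by TMM. The 7 libraries of experiment 1 and the 8 of experiment 2 were each fitted with edgeR 4.0.16 (R 4.3.3) by the quasi-likelihood test, two-sided and robust, with Benjamini-Hochberg adjustment over all genes. Standard errors derive from the F statistic. The test was also run on simulated counts, with the outcome not reported here. A member that was not called was not thereby shown to be unchanged. The members and lists were chosen with earlier results of these data known. Values in every library are given for 11 listed members and the 3 of largest change per comparison, and for some others named for an exception; up to 3 genes by p are named per other list. Alternatives used DESeq2 1.42.0, limma-voom (limma 3.58.1), other scalings, filters and library subsets. Replicate numbers in the titles were checked as a pairing: same-numbered libraries had deviations correlated between -0.07 and 0.07 over 10 pairs. Deviations in hr were taken from the mean of all hr libraries and so carry the difference between uns-1 and uns-2. The pairs also share libraries, so the check cannot decide whether the numbers pair libraries. Expected counts in libraries of this depth carry counting error, which the edgeR test includes.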

Additional observations from a re-analysis of the deposited data

Results flagged for a closer look

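Within the 4 EFPrx1MSCLC libraries, 225 stood apart from the others by Dixon's test at the 95% level for 11 of the 39 mitosis genes. Its levels were 2.24 CPM for Aurka, 5.19 for Ccnb1, 3.46 for Cenpf, 6.48 for Kif20a and 1.28 for Kif4. They were 1.99 CPM for Nek2, 0.641 for Ndc80, 0.77 for Spc24, 12.8 for Anln, 8.08 for Foxm1 and 1.92 for Ube2c. Chance flags about 1 in 20 groups of this kind, and the genes of the list are not independent of each other. The share of all genes flagged in this way was not computed, so the count cannot be read as particular to mitosis genes. Over all genes 225 was 76.9 to 98 times counting noise from the others of its group. Pairs among those others lay at 7.62 to 50.3 times. The cause was not tested.

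For 6 genes both uns-1 libraries lay below and both uns-2 libraries above EF, a difference between hr pairs that was not tested. As log2 ratios to EF, Cdc25c was at -0.42 in uns-1 and 0.27 in uns-2, Cenpe at -0.23 and 0.44, and Cenpf at -0.35 and 0.17. Kif20a was at -0.66 in uns-1 and 0.32 in uns-2, Kif4 at -0.49 and 0.27, and Nek2 at -0.52 and 0.20. Kif20a and Kif4 overlap genes on the opposite strand.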

How the results depend on the processing

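Under every alternative run, no member was called in the direction opposite to its comparison, and the median kept its sign. In experiment 1, 2 members were called, against 8 with DESeq2's Wald test (2043 of all genes called higher), 0 with limma-voom (1121), 1 without a filter (862), and 0 to 22 with libraries left out in turn. With 225 and 202 both left out, a choice made after their low levels were seen and so no independent evidence, 35 were called, against 22.9% of all genes called higher, and the median was 1.69. In ha against EF the count fell to 9 with close pairs summed. In hr against EF, 6 calls became 18 with uns-1 alone (median -0.71), against 8.26% of all genes called lower. With uns-2 alone 3 were called (median -0.26), against 6.30% of all genes. The calls varied with the library left out, as did the share over all genes. Every call over all genes was lost with close pairs summed or without either EF library. In hr against ha, 30 calls became 14 to 34 with libraries left out, 7 with close pairs summed and 17 with uns-1 alone, against 17.3% of all genes. Using the last title number as a replicate block gave 35 calls in ha against EF, 1 in hr against EF and 27 in hr against ha. Over all genes, 17.2% were then called lower in ha against EF and 0.736% in hr against EF. In hr against ha 15.0% were called higher. The labels do not say whether these numbers pair the libraries, so the lost calls cannot be interpreted.

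Signs turned only for genes that were not called. In hr against EF with uns-2 alone, the log2 fold change was 0.11 for Cdc20, 0.30 for Cdc25c, 0.20 for Cenpf, 0.35 for Kif20a, 0.08 for Kif2c, 0.30 for Kif4, 0.23 for Nek2, 0.13 for Nuf2, 0.03 for Ect2 and 0.0048 for Foxm1, and with uns-1 alone -0.23 for Cenpe. With libraries left out in turn it ran from -0.19 to 0.08 for Cdc25c, -0.16 to 0.02 for Cenpf, -0.25 to 0.07 for Kif20a, -0.21 to 0.07 for Kif4, -0.25 to 0.02 for Nek2, -0.31 to 0.00059 for Nuf2 and -0.00038 to 0.25 for Cenpe. In hr against ha it ran from -0.07 to 0.15 for Ccnb2 and from -0.44 to 0.91 for Spc25, and with uns-1 alone -0.03 for Spc25. The causes were not tested. With the EF pair possibly a single sample, and no group larger than 4 libraries, small changes in hr cannot be separated from differences between samples.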
